A study of Canis lupus familiaris with 6 samples.

Results

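The genes described here encode glycoproteins, granule proteins and the tubulin of blood platelets, and their transcripts were followed in the whole blood of individual dogs. They were chosen by name: ITGA2B, ITGB3, GP1BA, GP6, GP9, PF4, PPBP, TUBB1 and SELP. Of these 9 names, 6 have a row in the table of 31512 genes (ITGA2B, ITGB3, GP6, PPBP, TUBB1 and SELP). No row carries the name GP1BA, GP9 or PF4, and these 3 genes were not analysed here. The blood came from healthy adult Beagle dogs, 3 of a control group fed a snack without CPP-Se and 3 of a CPP-Se group fed the same kind of snack with casein phosphopeptide-selenium chelate, an organic selenium compound. All dogs ate the same maintenance food, and blood was taken on day 30 of feeding, with 1 library per dog. The labels call the dogs biological replicates and give neither their sex nor how they were picked from the feeding groups.

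Platelets are small cells without a nucleus that are shed by megakaryocytes in the bone marrow and close wounds by sticking to the vessel wall and to each other. They keep messenger RNA from the megakaryocyte, so platelet transcripts are found in RNA of whole blood that has not been depleted of platelets. The glycoproteins on their surface bind collagen, von Willebrand factor and fibrinogen, the alpha granules release chemokines and adhesion proteins on activation, and a ring of microtubules keeps the resting platelet flat. In RNA of whole blood, fewer platelets and less RNA per platelet cannot be told apart, and platelet numbers were not analysed here.

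Values are FPKM, the fragments on a gene per kilobase of its length, scaled to a library size set by the authors, so that levels of different genes can be set side by side. Between 6598173 and 8067034 reads lay on genes in each dog, and the 6 platelet genes held 288 to 12992 reads each per dog. Reads alone would give a coefficient of variation of 1.12% to 4.18% for these genes, while the dogs of a group varied by 27.1% to 80.1%. That spread also holds any difference in library scaling between the dogs. All 6 genes reached a mean of 1 FPKM and so belonged to the 9847 genes tested on log2(FPKM + 1) by limma, two-sided, with Benjamini-Hochberg adjustment over all of these genes. Calls required an adjusted p under 0.05 together with a change of 1.5-fold or more. In all, 3 of the 9847 genes were called (0.0305%), and none of the 6 platelet genes was among them. The smallest adjusted p of a platelet gene was 0.499, 0 of the 6 had an unadjusted p under 0.05 (16.0% of all genes tested had), and limma-voom on the recovered reads called 0 of the 6 as well.

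ITGA2B and ITGB3 encode the chains of the integrin αIIbβ3, the fibrinogen receptor through which platelets aggregate. ITGA2B (ENSCAFG00000014145, chromosome 9, 19050001 to 19063992, plus strand, in the dog genome of Ensembl release 100, as are the positions that follow) had 214, 178 and 391 FPKM in control replicates 1, 2 and 3 and 207, 99.3 and 270 FPKM in CPP-Se replicates 1, 2 and 3. The control dogs averaged 261 ± 114 FPKM and the CPP-Se dogs 192 ± 86.2 FPKM (SD, n = 3 dogs per group here and below). Control replicate 3 was highest, CPP-Se replicate 2 was lowest, and the groups overlapped. The log2 fold change of ITGA2B was -0.47 with a standard error of 0.43 (95% confidence interval -1.47 to 0.53, adjusted p = 0.631).

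ITGB3 (ENSCAFG00000013735, chromosome 9, 9182562 to 9231451, minus strand) had 122, 108 and 206 FPKM in controls against 75.0, 53.5 and 165 FPKM under CPP-Se, in the order of the replicates. The means were 145 ± 52.9 FPKM and 97.8 ± 59.2 FPKM. CPP-Se replicates 1 and 2 lay below every control dog, but CPP-Se replicate 3 lay above control replicates 1 and 2. The log2 difference of -0.67 (standard error 0.43, 95% confidence interval -1.67 to 0.33, adjusted p = 0.499) was the largest in size of the 6 for the deposited values and did not pass. After scaling to the reads on genes it was -0.53, smaller in size than the 0.57 of TUBB1. Without CPP-Se replicate 3, the dog that made the groups overlap, they no longer overlapped. The log2 fold change of ITGB3 was then -1.13, still with an adjusted p of 0.195.

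GP6 encodes glycoprotein VI, the collagen receptor that starts platelet activation. GP6 (ENSCAFG00000031157, chromosome 1, 102585544 to 102613905, plus strand) was listed at 14.2, 14.9 and 52.2 FPKM in controls against 23.1, 13.5 and 21.99 FPKM under CPP-Se. The group means of 27.1 ± 21.7 FPKM and 19.5 ± 5.28 FPKM gave a log2 fold change of -0.23 (standard error 0.48, 95% confidence interval -1.35 to 0.89, adjusted p = 0.860). Control replicate 3 was 3.68 times the lowest control dog. With it left out the log2 fold change of GP6 was 0.36, and without CPP-Se replicate 2 it was 0.0076, so the sign of this difference rests on single dogs.

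SELP encodes P-selectin, which is stored in alpha granules and reaches the platelet surface on activation, where it binds leukocytes. SELP (ENSCAFG00000015180, chromosome 7, 28958486 to 28996313, plus strand) had 24.9, 16.2 and 57.3 FPKM in controls against 32.8, 15.2 and 33.2 FPKM under CPP-Se. The means were 32.8 ± 21.7 FPKM and 27.1 ± 10.3 FPKM, and the groups overlapped. Its log2 difference of -0.16 (standard error 0.48, 95% confidence interval -1.27 to 0.95, adjusted p = 0.905) turned to 0.33 without control replicate 3 and to 0.20 without CPP-Se replicate 2. Endothelial cells also make P-selectin. Of 12 endothelial marker genes, 3 reached a mean of 1 FPKM (VWF, KDR and EGFL7, at up to 2.81, 2.69 and 3.12 FPKM), the summed level of the list was 2.92 to 10.2 FPKM in the control dogs and 5.05 to 7.93 FPKM in the CPP-Se dogs, ROBO4 was at 0 in every dog, EMCN reached 0.034 FPKM at most and CDH5 0.493 FPKM at most. A value of 0 is no proof that a gene is not expressed, and which cells the SELP reads came from was not tested.

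PPBP encodes platelet basic protein, the chemokine precursor that is the source of CXCL7 and among the most abundant proteins of the alpha granule. PPBP (ENSCAFG00000031174, chromosome 13, 62526571 to 62528527, plus strand) had 353, 311 and 735 FPKM in controls against 396, 268 and 1116 FPKM under CPP-Se. The means were 466 ± 234 FPKM and 593 ± 457 FPKM. Replicate 3 was the highest dog of either group, and CPP-Se replicate 3 had 4.16 times the level of CPP-Se replicate 2. Its log2 difference of 0.18 (standard error 0.55, 95% confidence interval -1.10 to 1.47, adjusted p = 0.905) became -0.41 without CPP-Se replicate 3 and -0.05 without control replicate 2, so its sign also depends on single dogs.

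TUBB1 encodes the beta-1 tubulin of megakaryocytes and platelets, from which the marginal band of microtubules is built. TUBB1 (ENSCAFG00000032130, chromosome 24, 43759555 to 43771737, plus strand) had 87.5, 104 and 148 FPKM in controls against 199, 78.5 and 209 FPKM under CPP-Se. CPP-Se replicates 1 and 3 lay above every control dog, whereas CPP-Se replicate 2 was the lowest of all. The means of 113 ± 31.1 FPKM and 162 ± 72.4 FPKM gave a log2 fold change of 0.43 (standard error 0.40, 95% confidence interval -0.50 to 1.35, adjusted p = 0.644). Without CPP-Se replicate 2 the groups did not overlap and the log2 fold change was 0.88, with an adjusted p of 0.207 from limma. That lack of overlap follows from leaving out the dog that made the groups overlap.

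**Figure D1:**
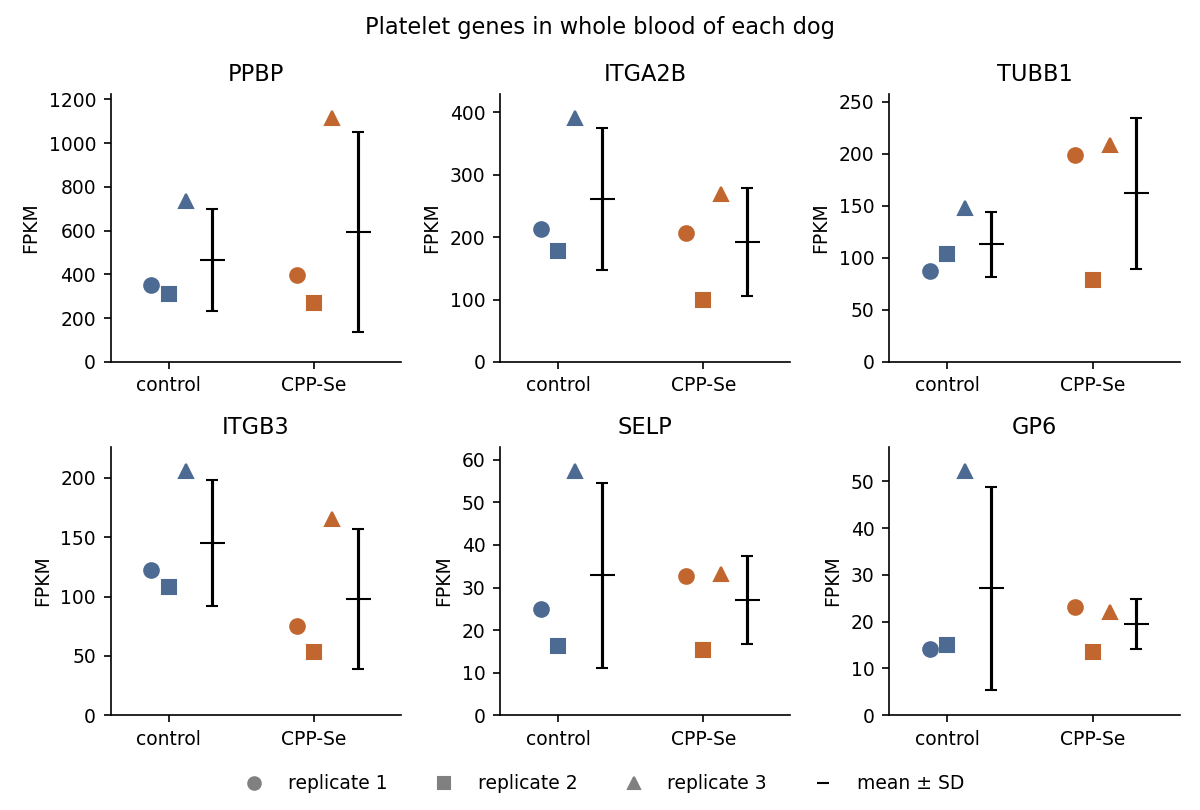
FPKM (vertical axes, each starting at 0) of the 6 platelet genes in the 3 control dogs (blue) and the 3 CPP-Se dogs (orange). Symbols mark the replicate number and black bars the mean ± SD of a group. Replicate 3 is the highest control dog in all 6 panels and CPP-Se replicate 2 the lowest of all dogs.

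Over the 6 genes, 2 had a log2 fold change above 0 and 4 below 0, with a median of -0.19 against -0.0043 over all genes tested (50.4% of which lay below 0). The median of the 6 was 0.35 without control replicate 3 and 0.10 without CPP-Se replicate 2, and it lay between -0.53 and -0.35 with any other dog left out. With all dogs the groups overlapped in all 6 (23.0% of all genes tested had groups without overlap, 10.4% with all CPP-Se dogs higher and 12.6% with all lower). The 95% confidence intervals ran from a fold change of 0.314 (ITGB3, lower bound) to 2.77 (PPBP, upper bound). Differences of 1.5-fold in either direction lay inside the intervals of GP6, SELP and PPBP and are not excluded for them. The intervals of ITGA2B and ITGB3 hold a 1.5-fold lower level and that of TUBB1 a 1.5-fold higher one.

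**Figure D2:**
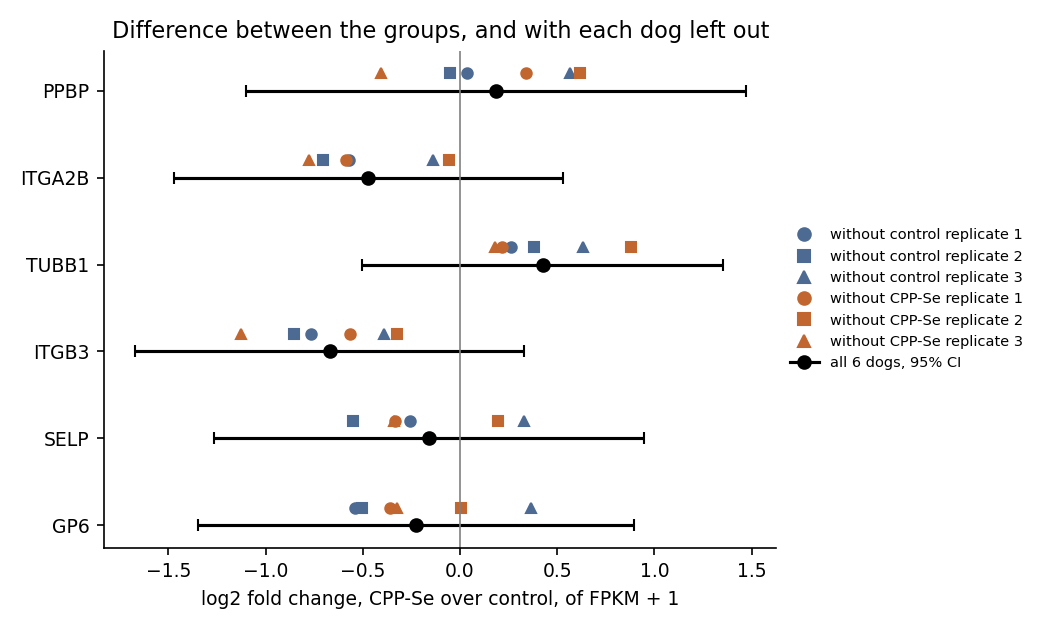
Log2 fold change of FPKM + 1, CPP-Se over control (horizontal axis), of the 6 platelet genes, with the 95% confidence interval from limma for all 6 dogs (black) and the value with each dog left out (coloured symbols). Every interval crosses 0, and the values for PPBP, SELP and GP6 lie on both sides of 0 when single dogs are left out.

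The 6 genes placed the dogs in a similar order. Control replicate 3 was the highest control dog for 6 of the 6 genes, as it was for 35.2% of all genes tested. CPP-Se replicate 2 was the lowest of the 6 dogs for 6 of the 6 genes, as it was for 15.6% of all genes tested, and it was the lowest CPP-Se dog for 32.0% of them. The latter library stands apart: 36.6% of its reads on genes were hemoglobin reads, against 48.7% to 55.9% in the other dogs, and the library size behind its FPKM is 1.65 times its reads on genes, against 0.882 to 1.05 times in the other dogs. When the values were scaled to the reads on genes instead, CPP-Se replicate 2 was lowest for 1 of the 6 genes. When scaled to the reads on genes other than hemoglobin, it was lowest for 2 of the 6. With the median of ratios it stayed lowest for 6 of the 6. The factors of that scaling were 0.993 to 1.01, so it left the deposited values nearly unchanged and could hardly move the order. The place of control replicate 3 as the highest control dog held for all 6 genes under each of these scalings.

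Over the 6 dogs, all 15 pairs of platelet genes had a positive Pearson r of log2(FPKM + 1), from 0.416 (ITGB3 and TUBB1) to 0.923 (GP6 and SELP), with a median of 0.748. For the integrin chains ITGA2B and ITGB3, r was 0.920 (exact permutation p = 0.00694, adjusted p = 0.0625 over the 15 pairs) and Spearman's rho was 0.943 (exact permutation p = 0.0167, adjusted p = 0.0833). Without the 2 dogs farthest from the median of ITGA2B, r was 0.654. For GP6 and SELP, r was 0.923 (exact permutation p = 0.00833, adjusted p = 0.0625), rho was 0.886 (exact permutation p = 0.0333, adjusted p = 0.0833) and r without the 2 farthest dogs was 0.806. In the same check r was -0.149 for ITGB3 and GP6, -0.0353 for ITGB3 and TUBB1 and 0.0505 for ITGB3 and SELP, so these values depended on the dogs kept. The check chose the dogs by the first gene of a pair alone, and so few dogs remained that each r is uncertain. None of the 15 pairs passed an adjusted p of 0.05. After the group means had been subtracted, r lay between 0.676 and 0.999 with a median of 0.795. Library scaling is shared by both genes of a pair and enters these values.

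The order of levels was the same in all dogs for most of the genes. PPBP lay above ITGA2B, ITGA2B above TUBB1, ITGB3 above SELP and SELP above GP6 in 6 of 6 dogs each. SELP and GP6 were close, with ratios of 1.09 to 1.76. The exception was the pair TUBB1 and ITGB3: ITGB3 was the higher of the pair in 3 of 3 control dogs and TUBB1 in 3 of 3 CPP-Se dogs.

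Ratios between platelet genes within a dog do not depend on the scaling of the library, and they were examined after the values had been seen. TUBB1 over ITGB3 was 0.715, 0.961 and 0.717 in controls against 2.65, 1.47 and 1.26 under CPP-Se, without overlap. On the log2 scale the mean ratio was -0.34 ± 0.25 in the control group and 0.77 ± 0.56 in the CPP-Se group, a difference of 1.11. TUBB1 over ITGA2B was 0.409, 0.582 and 0.377 in the control dogs against 0.961, 0.791 and 0.773 in the CPP-Se dogs, also without overlap, with a difference of 0.90 on the log2 scale. So TUBB1 was higher relative to both integrin chains in every CPP-Se dog, replicate 2 included, than in any control dog.

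The ratios of PPBP to the integrin chains were higher under CPP-Se as well. PPBP over ITGB3 was 2.88, 2.89 and 3.57 in controls against 5.28, 5.01 and 6.76 under CPP-Se, a difference of 0.86 on the log2 scale. PPBP over ITGA2B was 1.65, 1.75 and 1.88 against 1.91, 2.70 and 4.14, a difference of 0.66, but control replicate 3 and CPP-Se replicate 1 were nearly equal. The ratio of the integrin chains themselves, ITGA2B over ITGB3, was 1.75, 1.65 and 1.90 in controls against 2.76, 1.86 and 1.64 under CPP-Se and overlapped.

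In all, 4 of the 15 ratios had groups without overlap, the 4 just given. For each of them the exact permutation test, two-sided, gave p = 0.1, the smallest that 3 dogs against 3 allow, and an adjusted p of 0.375 over the 15 ratios. Such a ratio is not particular to these genes: of 9455 genes above 0 in every dog, 7.53% had groups without overlap relative to ITGA2B, 7.38% higher and 0.148% lower under CPP-Se, and 9.55% did relative to ITGB3, 9.44% higher and 0.106% lower. With each dog left out in turn, the difference of TUBB1 over ITGB3 stayed between 0.79 and 1.32, that of TUBB1 over ITGA2B between 0.78 and 1.09, that of PPBP over ITGB3 between 0.73 and 0.97, and that of PPBP over ITGA2B between 0.37 and 0.93.

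**Figure D3:**
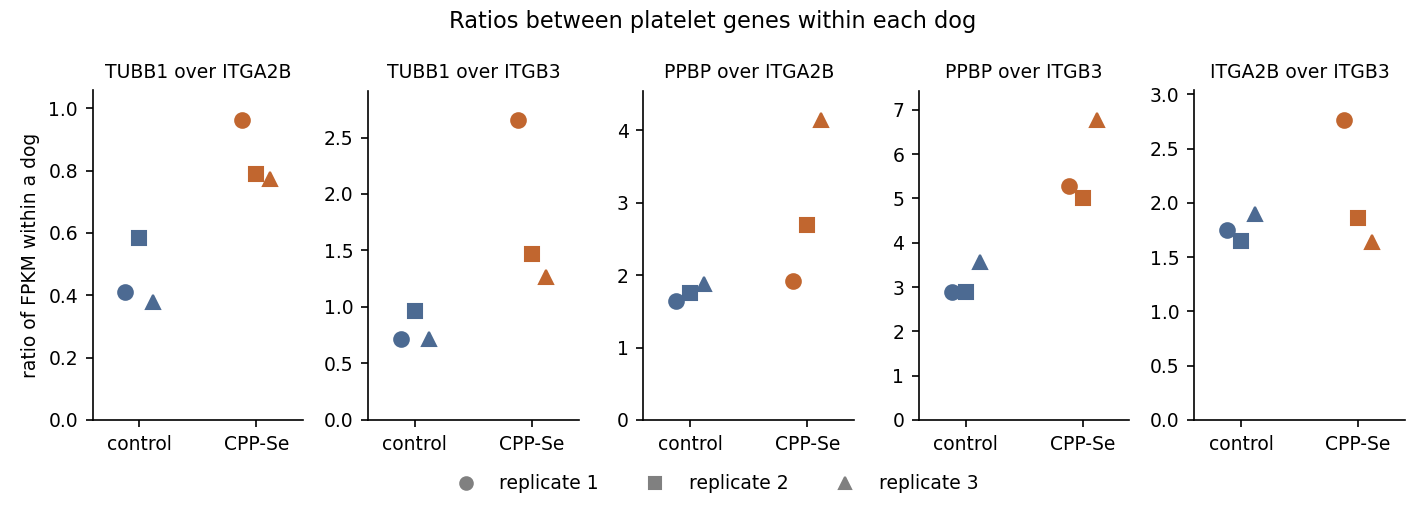
Ratios of FPKM between platelet genes within each dog (vertical axes, each starting at 0), for 3 control dogs (blue) and 3 CPP-Se dogs (orange), with symbols for the replicate number. The groups do not overlap in the first 4 panels and overlap for ITGA2B over ITGB3.

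The other genes of platelet biology were taken from 6 lists of 104 genes in all, of which 96 have a row and 79 were tested. None was called (limma, adjusted p of 0.138 at the lowest). Of the 79, 5 that were higher and 11 that were lower under CPP-Se had an unadjusted p under 0.05, which is 20.3% against 16.0% of all genes tested (6.87% higher and 9.1% lower). Groups without overlap were found for 22.8% of the 79, against 23.0% of all genes. The median log2 fold change was -0.23, with 23 genes above 0 and 56 below. With scaling to the reads on genes, the median of the lists was -0.08, with 37 genes above 0 and 42 below, and the median of all genes was 0.12. Single dogs moved the lists as well: their median was -0.0041 without CPP-Se replicate 2 (38 genes above 0 and 40 below) and -0.10 without control replicate 3.

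Among the adhesion receptors and their partners, 10 of 13 genes had a log2 fold change below 0, with a median of -0.42 (9 genes and -0.27 with scaling to the reads on genes). The median was -0.07 without CPP-Se replicate 2 and -0.18 without control replicate 3. CD9, a tetraspanin of platelets and leukocytes, and SELPLG, the leukocyte ligand of P-selectin, had an unadjusted p under 0.05, both lower in the CPP-Se group. CD9 had 219 ± 13.8 FPKM in controls against 128 ± 66.7 FPKM under CPP-Se (log2 fold change -0.91, adjusted p = 0.296). SELPLG had 220 ± 18.1 FPKM in controls against 157 ± 19.4 FPKM under CPP-Se (log2 fold change -0.48, standard error 0.20, adjusted p = 0.288), without overlap. FCER1G, the signaling chain of glycoprotein VI that leukocytes use as well, had 749 ± 102 FPKM and 521 ± 63.5 FPKM (log2 fold change -0.52, adjusted p = 0.322), also without overlap. GP1BB, the beta chain of the von Willebrand factor receptor, had 98.8, 122 and 249 FPKM in controls against 164, 76.8 and 310 FPKM under CPP-Se. Like PPBP, it was highest in replicate 3 of both groups and lowest in CPP-Se replicate 2, and its log2 fold change was 0.13 (adjusted p = 0.931). CLEC1B, the podoplanin receptor, had 8.06 ± 2.39 FPKM and 4.86 ± 2.58 FPKM (log2 fold change -0.68, adjusted p = 0.363), and the groups overlapped. Its log2 fold change was -1.02 to -0.44 with each dog left out. GP5 and TREML1 have no row by those names and were not analysed here.

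Of 8 agonist receptors tested, 1 was higher (TBXA2R) and 1 was lower under CPP-Se at an unadjusted p under 0.05. TBXA2R, the thromboxane A2 receptor, had 15.05, 23.4 and 11.9 FPKM in controls against 63.4, 36.9 and 64.9 FPKM under CPP-Se, without overlap. The log2 difference of TBXA2R, 1.66 (standard error 0.31, adjusted p = 0.138), passed when the values were scaled to the reads on genes, at 1.81 with an adjusted p of 0.0324. Other blood cells make TBXA2R too. P2RY12, the ADP receptor, had 3.96 ± 0.809 FPKM and 4.10 ± 3.34 FPKM, with 0.576 FPKM in CPP-Se replicate 2.

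The list of alpha and dense granule genes held 16 tested genes with a median log2 fold change of 0.03 (0.17 with scaling to the reads on genes and -0.05 to 0.12 with each dog left out, below 0 without control replicate 2 or CPP-Se replicate 3). CCL5, VPS33B and SPARC had an unadjusted p under 0.05 and were higher under CPP-Se, and SRGN, F5 and LYST were lower. SRGN, the serglycin proteoglycan that retains PF4 in granules and is made by leukocytes as well, had 464, 347 and 306 FPKM in controls against 156, 206 and 180 FPKM under CPP-Se (log2 fold change -1.03, standard error 0.24, adjusted p = 0.144). CCL5, a chemokine that T and NK cells make as well, had 1.69, 0.542 and 8.90 FPKM in controls against 15.7, 7.35 and 16.0 FPKM under CPP-Se (log2 fold change 1.95, adjusted p = 0.222), and the groups overlapped. F13A1, the transglutaminase subunit of factor XIII shared with monocytes, had 44.2 ± 5.06 FPKM and 36.6 ± 17.0 FPKM, and NBEAL2, which alpha granules need to form, 52.9 ± 4.51 FPKM and 64.2 ± 22.5 FPKM, both with overlap. VWF was listed at 0.573 to 2.06 FPKM in the control dogs and at 0.682 to 2.81 FPKM in the CPP-Se dogs, and the mean of MMRN1 lay below 1 FPKM.

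Activation signaling genes had a median of -0.24 in 19 genes (-0.10 with scaling to the reads on genes and -0.10 with no filter on low values, and -0.14 without control replicate 3), with DGKA higher and GNAQ, SYK, LCP2 and PIK3CG lower at an unadjusted p under 0.05. FERMT3, the kindlin that switches the integrin on, had a log2 fold change of 0.33 (adjusted p = 0.570), and 0.17 to 0.56 with each dog left out. The 15 cytoskeleton genes ranged from -0.35 to 0.17, with a median of -0.05 that was 0.04 after scaling to the reads on genes, 0.19 without CPP-Se replicate 2, 0.07 without control replicate 3, -0.16 without control replicate 2, -0.15 without CPP-Se replicate 1 and -0.36 without CPP-Se replicate 3, and 0 had an unadjusted p under 0.05. TUBA4A, the alpha tubulin found with TUBB1 in platelets, lay at 57.7 ± 4.58 FPKM and 57.9 ± 6.92 FPKM. All 8 transcription factors of the megakaryocyte list lay below 0, with a median of -0.29 (-0.44 without control replicate 2), but 6 of 8 after scaling to the reads on genes, with a median of -0.14, and ETV6 alone had an unadjusted p under 0.05. NFE2 had 669 ± 132 FPKM against 480 ± 129 FPKM, GFI1B 36.4 ± 14.7 FPKM against 28.8 ± 4.75 FPKM, and GATA1 68.9 ± 17.7 FPKM against 64.4 ± 15.9 FPKM, with overlap in each. NFE2, GATA1 and GFI1B are red cell genes too, and the log2 fold change of GATA1, -0.09, was 0.05 after scaling to the reads on genes. CXCR2, the receptor for the product of PPBP on neutrophils, had 193 ± 28.9 FPKM in controls against 84.9 ± 25.2 FPKM under CPP-Se (log2 fold change -1.21, standard error 0.27, adjusted p = 0.143), without overlap.

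**Figure D4:**
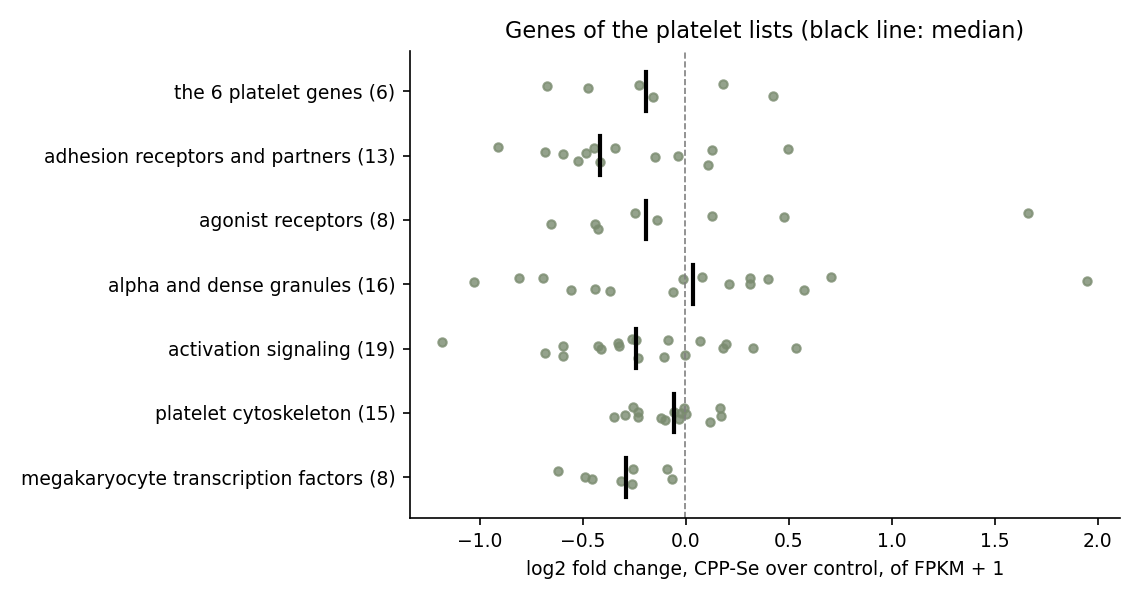
Log2 fold change of FPKM + 1, CPP-Se over control (horizontal axis), of each gene tested in the 6 platelet lists and of the 6 platelet genes, with the number of genes in brackets, the list median as a black line and the median of all genes as a dashed line. The medians lie between -0.42 and 0.03, and TBXA2R and CCL5 are the points above 1.5.

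No gene of the 8 marker lists of other cells was called with all dogs and the deposited values (limma, adjusted p of 0.138 at the lowest). Other settings with all dogs called up to 2 genes of the eosinophil list and 1 of the NK list, against 0 to 26 of all genes. With each dog left out, up to 2 of the eosinophil list and 1 of the neutrophil list were called, against 0 to 14 of all genes. Of 9 monocyte genes tested, 9 had a log2 fold change below 0 with a median of -0.89 (8 after scaling to the reads on genes), and of 8 neutrophil genes 7 did, with a median of -0.71. The summed FPKM of the monocyte list was 857 to 1008 in the control dogs and 415 to 490 in the CPP-Se dogs, and that of the neutrophil list 2411 to 3200 and 1839 to 2353. SELPLG, FCER1G, SRGN, SYK, LCP2, PIK3CG and CXCR2 are expressed by these cells, and the part of the leukocytes in their differences was not tested. The summed level of the 6 platelet genes was 815, 732 and 1589 FPKM in controls against 933, 528 and 1814 FPKM under CPP-Se and overlapped. Other lists had medians above 0, at 0.74 for 14 T cell genes (0.56 to 0.86 with each dog left out), 0.64 for 8 B cell genes, 0.94 for 10 genes of NK and cytotoxic cells and 1.05 for 7 genes of eosinophils, basophils and mast cells, and those of 15 red cell genes and 3 endothelial genes at 0.53 and 0.08. With no filter on low values the medians of the eosinophil, red cell and endothelial lists were lower, at 0.48, 0.31 and 0.01. Single dogs moved several of them: the eosinophil list was at 1.95 without CPP-Se replicate 2 and 0.54 without CPP-Se replicate 1, the red cell list at -0.09 without CPP-Se replicate 3 and 0.13 without control replicate 3, and the endothelial list at -0.17 without control replicate 2, -0.05 without CPP-Se replicate 2 and 0.45 without control replicate 3. The summed FPKM of the T cell list went against its median, with 1212, 1123 and 1395 in controls and 971, 1104 and 1007 under CPP-Se. CD4, which held most of that sum, had a log2 fold change of -0.61 (adjusted p = 0.297) and no overlap. Which blood cells the CD4 reads came from was not tested, so the sum may not measure T cells. The summed red cell list was 8999, 13284 and 6137 FPKM in controls against 10603, 6581 and 11437 FPKM under CPP-Se, and overlapped.

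The 10 named genes whose log2(FPKM + 1) over the 6 dogs was most like the mean of the 6 standardised platelet genes included, in order, ABI2, RHOF, TBXAS1, ILK, GUCY1A1, NRGN, CD151, FOPNL and TIMP1, with Pearson r from 0.967 to 0.995 among 8125 named genes. TBXAS1, the thromboxane synthase, GUCY1A1, a subunit of the nitric oxide receptor, and TIMP1, an inhibitor of metalloproteinases, are on the platelet lists. ILK encodes the integrin-linked kinase and CD151 a tetraspanin. NRGN, which encodes neurogranin, had 198, 156 and 376 FPKM in controls against 260, 94.2 and 412 FPKM under CPP-Se, so like the 6 genes it was lowest in CPP-Se replicate 2. The genes of the platelet lists had a median r of 0.486 with the same mean, against 0.0078 over all named genes. These values describe 6 dogs and rest on the same libraries and scaling.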

How the data were processed

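Whole blood RNA of 3 control and 3 CPP-Se dogs was enriched for poly(A) mRNA and sequenced. The authors mapped reads to the Ensembl release 100 dog genome (HISAT2 v2.0.5), added transcripts from a StringTie v1.3.3b assembly and deposited FPKM per gene. The submitters' processing notes also list fastp 0.19.7 and featureCounts 1.5.0-p3. Strand, shared reads and the library size behind the FPKM are not given in the sources used here. FPKM multiplied by gene length were whole multiples of the worth of 1 read for 100% of values (tolerance 0.01 read), and reads recovered in this way served for depth, scaling and limma-voom.

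Dogs were grouped by their labels. Genes averaging 1 FPKM or more were fitted on log2(FPKM + 1) in R 4.3.3 with limma 3.58.1 (lmFit, eBayes with an intensity trend), without pairing. Fold changes are on this scale, which understates changes of low genes. Tables and figures were made with Python 3.11.15, numpy 2.4.6, pandas 2.3.3, scipy 1.17.1 and matplotlib 3.10.9. The fit was tested on simulated data.

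The genes, the marker lists and the rule for named genes (the 6 platelet genes, 20 partners, called list genes and the 10 most similar genes) were chosen with earlier results of these data known. Some genes that the rule names are not reported here. List genes with an unadjusted p under 0.05, ROBO4, EMCN, CDH5, KDR, EGFL7, CD4 and the ratios were named after their values were seen. Marker lists of red cells, neutrophils, monocytes, T, B and NK cells, eosinophils with basophils and mast cells, and endothelial cells were described by counts and medians.

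The alternatives were a pseudocount of 0.1, other filters, 4 other scalings, eBayes without a trend, robust eBayes, replicate number as a block, limma-voom and each dog left out. Precision from reads covers counting error only, and no sequence of these genes was used here.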

Additional observations from a re-analysis of the deposited data

How the results depend on the processing

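None of the 6 platelet genes was called under any of the 17 other settings, limma-voom and the replicate block included. Over all genes, 3 were called as reported, 0 with a pseudocount of 0.1, 0 with no filter, 26 after scaling to the reads on genes, 1 with the replicate block, 1 with limma-voom on the recovered reads, and 0 to 14 with each dog left out (14 without CPP-Se replicate 2). Groups without overlap were found for 0 to 1 of the 6 genes with each dog left out, TUBB1 without CPP-Se replicate 2 and ITGB3 without CPP-Se replicate 3. In both cases the dog left out had made the groups overlap, so the result follows from the choice. The share of all genes without overlap in these settings is not given here. The values showed no pairing of dogs by replicate number: the correlations of deviations were 0.016, -0.09 and -0.043. No control dog correlated best with its own number in the CPP-Se group. The labels do not mention pairing, and these values cannot show whether the design held any. The block left ITGB3 at a log2 fold change of -0.67 with an adjusted p of 0.333. In the settings that kept all dogs, none of the 6 genes changed sign, but scaling to the reads on genes gave -0.089 for GP6, -0.021 for SELP, 0.33 for PPBP and -0.055 for the median of the 6. With each dog left out, log2 fold changes ranged from -0.77 to -0.06 for ITGA2B, -1.13 to -0.32 for ITGB3, -0.54 to 0.36 for GP6, -0.41 to 0.62 for PPBP, 0.18 to 0.88 for TUBB1, -0.55 to 0.33 for SELP, -0.36 to 0.64 for GP1BB, -0.26 to 0.33 for VWF, -0.064 to 0.10 for TUBA4A, -0.32 to 0.13 for GATA1, -0.56 to 0.029 for GFI1B, -0.74 to 0.45 for P2RY12, -0.22 to 0.11 for ABI2, -0.25 to 0.037 for RHOF, -0.56 to 0.066 for TBXAS1, -0.13 to 0.12 for ILK, -0.29 to 0.27 for GUCY1A1, -0.53 to 0.53 for NRGN, -0.34 to 0.21 for CD151, -0.37 to 0.075 for FOPNL and -0.82 to 0.0027 for TIMP1. Scaling to the reads on genes moved the median of all genes to 0.12 and turned GATA1 to 0.054, ABI2 to 0.00089, RHOF to 0.010, ILK to 0.11, GUCY1A1 to 0.015, NRGN to 0.082 and CD151 to 0.0022. Scaling to the reads other than hemoglobin moved that median to 0.10 and gave 0.038 for GATA1, 0.090 for ILK, 0.0054 for GUCY1A1 and 0.066 for NRGN, and quantile normalization gave 0.0027 for GATA1, 0.079 for ILK and 0.081 for NRGN. The causes were not tested.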

Other observations

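Several genes known from platelets were listed at or near 0. Of the 96 platelet list genes with a row, 17 had a mean under 1 FPKM, and 3 of these were listed at 0 in all 6 dogs: CD36, the fatty acid and thrombospondin receptor, F2RL2, a thrombin receptor, and SLC35D3, a dense granule gene. PDGFA reached 0.0641 FPKM at most. MMRN1, multimerin, also had a mean under 1 FPKM but reached 2.28 FPKM at its highest, so it was not near 0 in every dog. A value of 0 is no measure of expression here, since ATP5F1E, a subunit of the ATP synthase that cells in general use, was also listed at 0 in control replicate 3 and CPP-Se replicates 1 and 3. These genes were named after their values were seen.

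A transcript found by the assembly alone lies 72 bases beyond the 3' end of ITGB3 (chromosome 9, 9179667 to 9182490, assigned to the plus strand, while ITGB3 is on the minus strand). It had 142, 126 and 254 FPKM in the control dogs and 103, 60.9 and 262 FPKM in the CPP-Se dogs, which is 114% to 158% of the FPKM of ITGB3 in the same dog. The log2 fold change of the transcript was -0.49 (standard error 0.52, adjusted p = 0.690 from limma). Whether it is a separate transcript or a continuation of ITGB3 was not tested, and the ratios to ITGB3 above use the annotated gene alone.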
